A study of Mus musculus with 8 samples.

Results

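Slc12a2, Slc12a4, Slc12a5, Slc12a7, Atp1b1 and Atp1b2, 4 cation-chloride cotransporter genes and 2 beta subunit genes of the sodium pump, were read in a brain RNA-seq comparison of wild type mice with Uhrf2 knockout mice. They were taken by gene symbol, and 6 of 6 were found among the 17613 genes of the deposited count table. UHRF2 is a nuclear protein that binds modified cytosine, and the title of the series ties it to DNA methylation and to spontaneous seizures. The 8 polyadenylated RNA libraries came from brains of C57BL/6 mice, 4 labelled wild type (WT) and 4 labelled Uhrf2 KO (KO). The sources used here do not give the age, the sex, the knockout allele or whether each library is 1 animal, so p-values measure the spread between these libraries, which may be technical.

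Cation-chloride cotransporters move chloride across the cell membrane together with sodium or potassium. Slc12a2 encodes NKCC1, which loads cells with chloride, and Slc12a5 encodes KCC2, the neuronal carrier that extrudes it. Their balance sets whether GABA inhibits a mature neuron, and loss of KCC2 function is a known cause of seizures. Slc12a4 and Slc12a7 encode KCC1 and KCC4, potassium-chloride carriers of many cell types. The sodium pump builds the ion gradients on which these carriers run. Its catalytic alpha subunit needs a beta subunit to reach the membrane, and Atp1b1 and Atp1b2 encode beta 1 and beta 2, the latter known in brain as a glial adhesion molecule.

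Slc12a5 (ENSMUSG00000017740) lies on chromosome 2 from 164960802 to 164999731 on GRCm38, on the plus strand, and RefSeq gives it 2 separate start sites. The count table gives a single value per gene and library, so transcripts of the 2 starts are not told apart. The 250 bases upstream of each start (GRCm38.p6, from RefSeq) are printed because Slc12a5 was the member whose groups did not overlap, together with the second of the 2 windows of Slc12a7. Capitals mark the E-box CACGTG, which reads the same on both strands and is a known recognition element of the factors USF1 and USF2. All 3 sequences run 5′ to 3′ on the plus strand.

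Slc12a5 first start, chr2:164960596-164960845: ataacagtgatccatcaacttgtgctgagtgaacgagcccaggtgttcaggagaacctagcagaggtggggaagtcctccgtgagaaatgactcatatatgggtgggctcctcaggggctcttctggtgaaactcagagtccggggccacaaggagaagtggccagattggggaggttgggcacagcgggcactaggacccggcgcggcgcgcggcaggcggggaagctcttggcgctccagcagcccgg

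Slc12a5 second start, chr2:164967738-164967987: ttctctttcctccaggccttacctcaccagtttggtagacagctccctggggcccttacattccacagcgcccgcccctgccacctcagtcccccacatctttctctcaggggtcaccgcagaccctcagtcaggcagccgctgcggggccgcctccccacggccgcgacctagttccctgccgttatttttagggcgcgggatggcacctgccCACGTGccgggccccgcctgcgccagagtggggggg

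Slc12a7 second window, chr13:73763447-73763696: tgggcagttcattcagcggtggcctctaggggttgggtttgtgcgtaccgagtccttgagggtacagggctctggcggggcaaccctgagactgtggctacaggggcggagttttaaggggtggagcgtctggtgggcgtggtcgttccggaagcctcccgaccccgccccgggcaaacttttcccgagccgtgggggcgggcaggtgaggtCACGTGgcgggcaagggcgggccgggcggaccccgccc

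The second Slc12a5 window and both Slc12a7 windows lie inside their annotated genes. The second Slc12a5 window held 1 E-box that begins 36 bases before its start, and the second Slc12a7 window held 1 that begins 38 bases before its own. The first windows of Slc12a5 and Slc12a7 and those of Slc12a4 and Atp1b1 held none, so that 2 of 6 windows had the element, and the 2 Slc12a7 windows overlap. An E-box was present in 6.02% of the 32851 upstream windows of this length. The element GCGNGGGCG, bound by EGR factors and sought on both strands, was in 4.70% of all windows and in none of the 6 windows found for Slc12a4, Slc12a5, Slc12a7 and Atp1b1. The Slc12a5 windows held 13 and 16 CpG dinucleotides, against a median of 6 over all windows. This was not particular to Slc12a5: the Slc12a4 window held 13, the Slc12a7 windows 15 and 21 and the Atp1b1 window 24. These are matches of letters and carry no measurement of binding or methylation.

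Uhrf2 itself (chromosome 19, 30030513 to 30093722) stood at 55.4 ± 5.22 CPM (counts scaled to library size, mean ± SD, n = 4) in WT and 88.8 ± 2.23 CPM in KO libraries, a log2 fold change of 0.68 (SE 0.06, 95% interval 0.56 to 0.80, edgeR adjusted p = 5.45e-06). This goes against the label of a knockout. In counts per gene, a transcript that lacks an exon and an exchange of the 2 groups' labels cannot be told apart, and an exchange would turn every direction given here. Directions below are therefore those of the libraries labelled KO relative to the libraries labelled WT. The libraries held 11891350 to 19773921 counts. An adjusted p under 0.05 was reached by 228 of 15902 tested genes, which is 1.43%. All 12 neuron, 14 astrocyte, 12 oligodendrocyte and 16 choroid plexus and ependymal markers passed the filter on low counts. So did 15902 of all 17613 genes, so passing says little about the tissue. Of the 9 marker lists, that of the striatum held genes past the threshold, with 4 of 12 higher in KO (median 0.17 on the log2 scale) against 1.14% of all genes. The count was 0 without WT replicate 3, 1 without KO replicate 3, 2 without WT replicate 1, WT replicate 2 or KO replicate 1, and 6 without WT replicate 4, with the median at 0.15 to 0.19. The other 8 lists held none, with medians of -0.12 to 0.06. All 9 lists were chosen with earlier results of these data known, so these shares are a description.

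No member passed the test. Of the 6, all passed the filter on low counts, 0 passed the threshold, against a background of 1.43%, and 2 had an unadjusted p under 0.05, against 12.6% of all genes. The adjusted p ran from 0.263 to 0.967. On the log2 scale the members' median difference was 0.0037, beside -0.0049 over all tested genes, and 3 of 6 were positive. Slc12a5 was the 1 member whose groups did not overlap, with all KO libraries above all WT libraries. Groups did not overlap in 7.67% of all tested genes, 4.28% being higher and 3.40% lower in KO.

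Slc12a5, the chloride extruder, stood at 665, 703, 704 and 713 CPM in WT replicates 1 to 4. In KO replicates 1 to 4 it stood at 717, 719, 745 and 786 CPM. The gap between the groups was narrow, with the highest WT library just under the lowest KO library, and WT replicate 1 and KO replicate 4 lay farthest out. The means were 696 ± 21.4 and 742 ± 32.0 CPM (SD, n = 4), 1.07-fold higher in KO. The log2 fold change was 0.09 (SE 0.04, 95% interval 0.01 to 0.17), with an unadjusted p of 0.0281 and an edgeR adjusted p of 0.317. With trends of GC content and transcript length removed it was 0.06 (adjusted p = 0.419), and without KO replicate 4 it was 0.06 (adjusted p = 0.580).

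Neuron markers stood beside it as follows. All 12 tested were on the positive side, against 48.0% of all tested genes, with a median of 0.058 on the log2 scale. Of the 12, 0 passed the edgeR threshold and 5 had an unadjusted p under 0.05, against 12.6% of all genes. In DESeq2 1 passed, and 2 passed with GC content and length trends removed or without WT replicate 4. Their summed level ran from 8508 to 9072 CPM in WT and from 8841 to 9466 CPM in KO libraries. Genes with high counts leaned the same way: of 2426 genes above 100 CPM in both groups, 65.9% were higher in KO by their log2 fold change, whose median was 0.025. The part of either in the Slc12a5 values was not tested. In bulk tissue, a change in the number of cells of a type and one in RNA per cell cannot be told apart.

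Slc12a2, the chloride loader, had the lowest p of the members and the opposite sign. This gene (ENSMUSG00000024597) lies on chromosome 18 from 57878678 to 57946821. Its level was 166, 138, 141 and 148 CPM in WT replicates 1 to 4, and 142, 127, 136 and 131 CPM in KO replicates 1 to 4. WT replicate 1 was the highest of all libraries, and KO replicate 1, the highest of its group, reached into the WT range. The means were 148 ± 12.5 and 134 ± 6.16 CPM (SD, n = 4). The log2 fold change was -0.14 (SE 0.05, 95% interval -0.26 to -0.03), at an unadjusted p of 0.0176 and an adjusted p of 0.263. Without WT replicate 1 it was -0.08 (adjusted p = 0.520), and with GC content and length trends removed it was -0.11 (adjusted p = 0.209).

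The choroid plexus and ependyma, which line the ventricles, also express Slc12a2. Their 16 markers summed to 2137 CPM in WT replicate 1 and to 1580 to 1752 CPM in the other WT libraries, and to between 1569 and 1773 CPM in KO libraries. The library with the most Slc12a2 was also the highest in this list, and in that of cerebellar markers, at 3576 CPM. The order was not kept elsewhere. KO replicate 2 was the highest KO library in the choroid plexus and ependymal list, at 1773 CPM, and had the least Slc12a2, at 127 CPM. Of the 16 markers 0 passed the threshold and 4 were on the positive side, and the median log2 difference was -0.068. None was at 0, and Ttr, the defining transthyretin gene, stood at 959 ± 138 and 881 ± 71.2 CPM (SD, n = 4). Of the 12 oligodendrocyte markers 0 passed and 1 was positive, at a median of -0.060, with summed levels of 7468 to 7845 CPM in WT and 6998 to 7914 CPM in KO. Other lists leaned less or the other way. Of the 8 oligodendrocyte precursor markers 0 passed and 5 were positive, at a median of 0.030. Of the 14 astrocyte markers 0 passed and 6 were positive, at a median of -0.018. Endothelial and mural markers, those of blood vessels, had 0 of 14 past the threshold and 6 at an unadjusted p under 0.05. Of these markers 2 were positive, at a median of -0.12. Over all tested genes, 12.6% had an unadjusted p under 0.05 and 48.0% were positive. The blood vessel markers summed to 418 to 462 CPM in WT and 391 to 413 CPM in KO libraries, without overlap but with a narrow gap. The part of these cells in the Slc12a2 values was not tested.

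**Figure D1:**
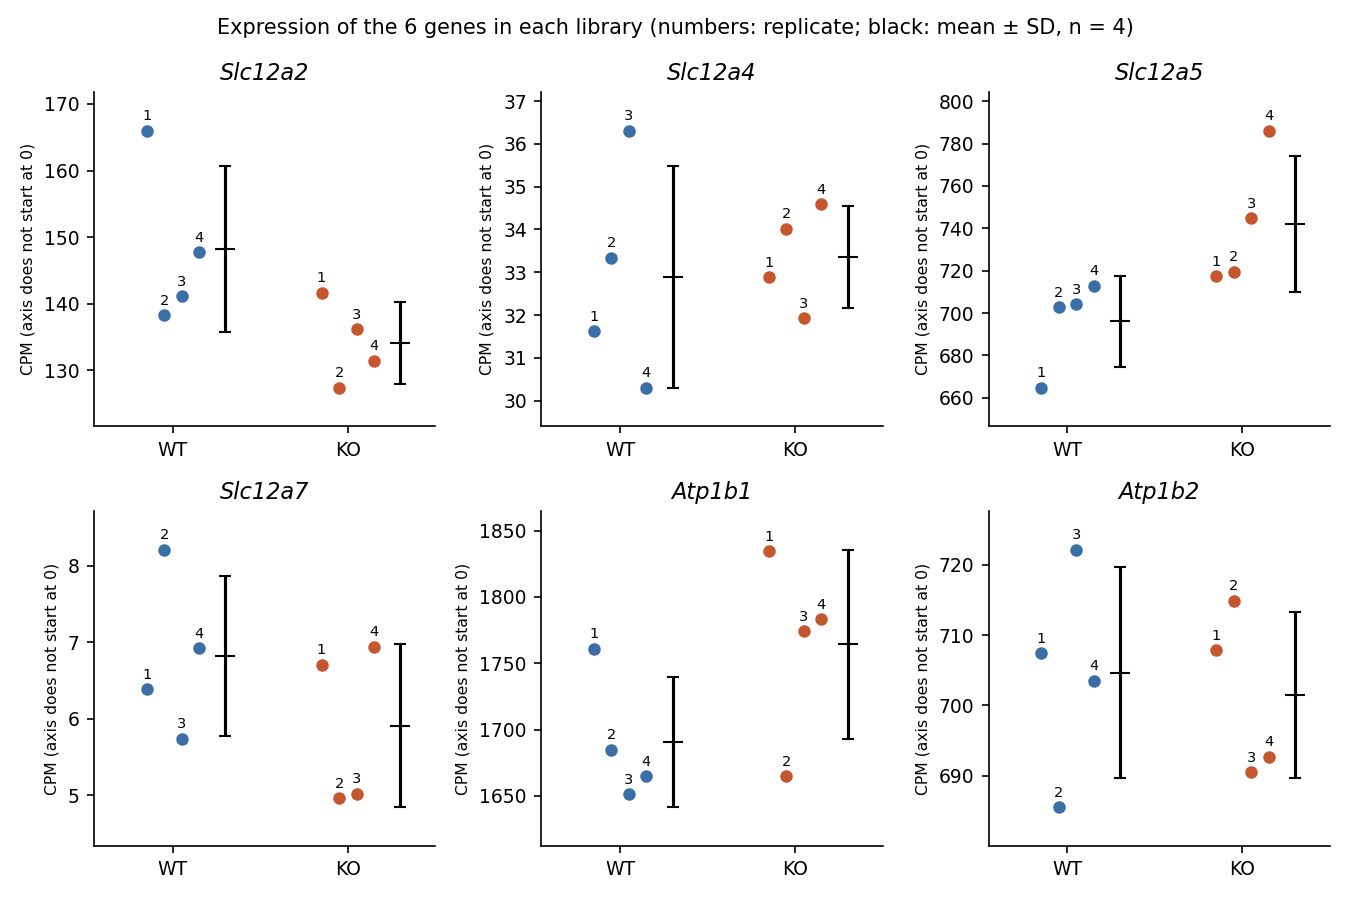
Level of each of the 6 genes in CPM (vertical axes, not starting at 0) in the WT and KO libraries. Each point is a library with its replicate number, and the black bar is the mean ± SD of 4. The groups separate only for Slc12a5, and WT replicate 1 is the highest point for Slc12a2, at 166 CPM.

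The Slc12a5 to Slc12a2 ratio needs no scaling between libraries, since both genes are counted in the same one. Trends of GC content that differ between libraries need not cancel in it, as the transcripts have 58.3% and 44.2% GC. The ratio was not computed with such trends removed. With GC content and length trends removed, the genes' log2 fold changes were 0.06 for Slc12a5 and -0.11 for Slc12a2, against 0.09 and -0.14 in the main fit. As a ratio of counts, Slc12a5 to Slc12a2 was 4.004, 5.08, 4.99 and 4.83 in WT replicates 1 to 4. In KO replicates 1 to 4 it was 5.07, 5.65, 5.47 and 5.98. All KO libraries lay above the WT median and 3 of the 4 above the highest WT library, while KO replicate 1 fell just short of WT replicate 2. Per length of transcript, KCC2 messages outnumbered NKCC1 messages 5.11 ± 0.53 to 1 in WT and 5.99 ± 0.41 to 1 in KO libraries (SD, n = 4).

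The mean log2 ratio was 0.23 higher in KO, which is 1.18-fold, with a 95% interval of -0.005 to 0.58 from the permutation test. The exact two-sided permutation test over 70 regroupings gave p = 0.0571, and 0.114 adjusted over the 2 ratios tested, where the smallest p possible was 0.0286. After adjustment a ratio could pass 0.05 only if both ratios reached that smallest p, so not passing says little. The difference was 0.16 without WT replicate 1 (exact p = 0.0857) and 0.28 without KO replicate 1 (exact p = 0.0286, adjusted 0.0571). It was positive in all 4 pairs of libraries with the same number, although the numbers were not taken to pair the libraries. The ratio and the 2 genes' own values come from the same counts and are not separate evidence.

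**Figure D2:**
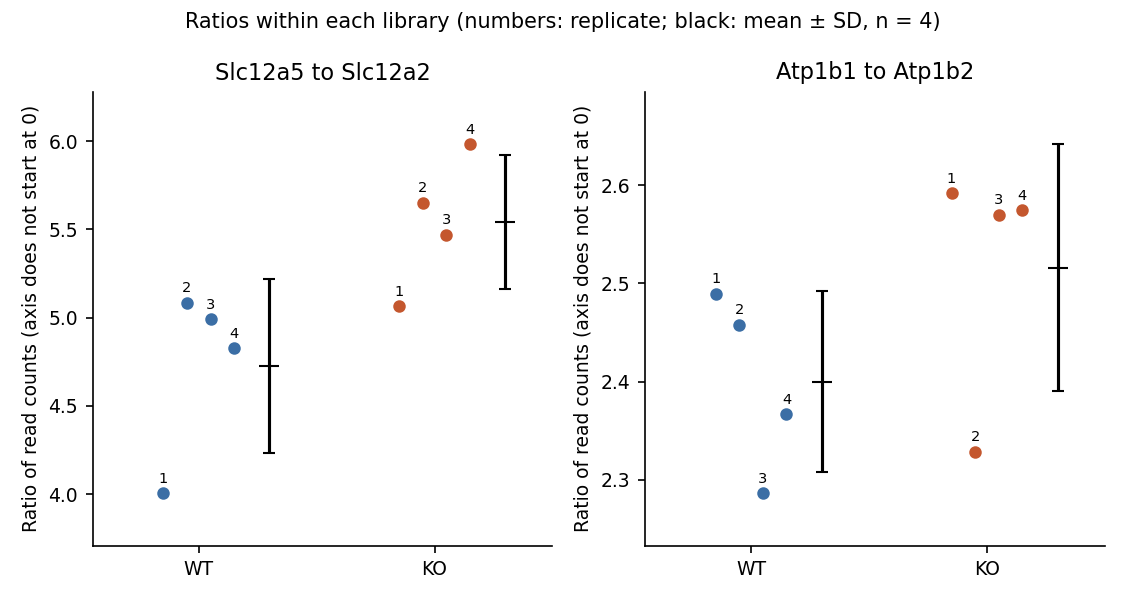
Ratio of read counts within each library (vertical axes, not starting at 0) for Slc12a5 to Slc12a2 and for Atp1b1 to Atp1b2. Points are libraries with their replicate number, and black bars are the mean ± SD of 4. For Slc12a5 to Slc12a2 the KO libraries lie between 5.07 and 5.98 and the WT libraries between 4.004 and 5.08, so that the groups just touch.

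The other potassium-chloride carriers were at lower levels. Slc12a4 (KCC1, ENSMUSG00000017765, chromosome 8 from 105943590 to 105966097) stood at 31.6, 33.3, 36.3 and 30.3 CPM in WT replicates 1 to 4. Its KO values were 32.9, 34.0, 31.9 and 34.6 CPM and lay wholly inside the WT range. The log2 fold change was 0.014 (SE 0.06, 95% interval -0.12 to 0.15, adjusted p = 0.963), an interval from 0.921-fold to 1.11-fold. Its sign was negative without WT replicate 4, without KO replicate 4 and with GC content and length trends removed. Slc12a4 shares 2254 bases with the antisense gene Gm16156 on the opposite strand and 63 with Mir7074 on its own strand. Neither has counts of its own here, and whether the counting used strand is not stated.

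Slc12a7 (KCC4, ENSMUSG00000017756, chromosome 13 from 73733094 to 73816754) was the rarest member, with 76 to 134 counts per library. Its levels were 6.39, 8.21, 5.74 and 6.93 CPM in WT replicates 1 to 4, and 6.71, 4.97, 5.02 and 6.95 CPM in KO replicates 1 to 4. The groups overlapped, and the 2 lowest libraries were KO replicates 2 and 3. Its log2 fold change of -0.22 had an SE of 0.14 and a 95% interval of -0.51 to 0.08 (adjusted p = 0.573). At this depth a fall to 0.701-fold and a rise to 1.06-fold were both inside the interval. Without WT replicate 2 the value was -0.11.

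Both beta subunits were among the most abundant messages. Atp1b1 (ENSMUSG00000026576, chromosome 1 from 164437109 to 164458355) stood at 1761, 1685, 1651 and 1665 CPM in WT replicates 1 to 4 and at 1834, 1665, 1774 and 1783 CPM in KO replicates 1 to 4. KO replicates 1, 3 and 4 were above all of WT, while KO replicate 2 was level with WT replicate 4. The log2 fold change was 0.06 (SE 0.04, 95% interval -0.01 to 0.14, adjusted p = 0.514). Without KO replicate 2 it was 0.09, at an unadjusted p of 0.0162 and an adjusted p of 0.205. The gene shares 617 bases with Nme7 on the opposite strand, and whether the counting used strand is not stated by any source used here.

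Atp1b2 (ENSMUSG00000041329, chromosome 11 from 69599736 to 69605942) varied least. It stood at 707, 686, 722 and 704 CPM in WT replicates 1 to 4 and at 708, 715, 690.5 and 693 CPM in KO replicates 1 to 4. The KO values lay inside the WT range. The log2 fold change was -0.0066 (SE 0.03, 95% interval -0.08 to 0.06, adjusted p = 0.967), an interval from 0.948-fold to 1.05-fold, and it was positive without WT replicate 3 or KO replicate 3. The SD within a group was 2.14% of the mean in WT and 1.69% in KO libraries.

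The Atp1b1 to Atp1b2 ratio of counts was 2.49, 2.46, 2.29 and 2.37 in WT replicates 1 to 4 and 2.59, 2.33, 2.57 and 2.57 in KO replicates 1 to 4. KO replicate 2 stood apart from the rest of its group and below 3 of the 4 WT libraries. The mean log2 ratio was 0.07 higher in KO, with a 95% interval of -0.10 to 0.18. By exact two-sided permutation p was 0.200, also after adjustment over the 2 ratios. Without KO replicate 2 the difference was 0.10 (exact p = 0.0571, adjusted 0.0857).

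**Figure D3:**
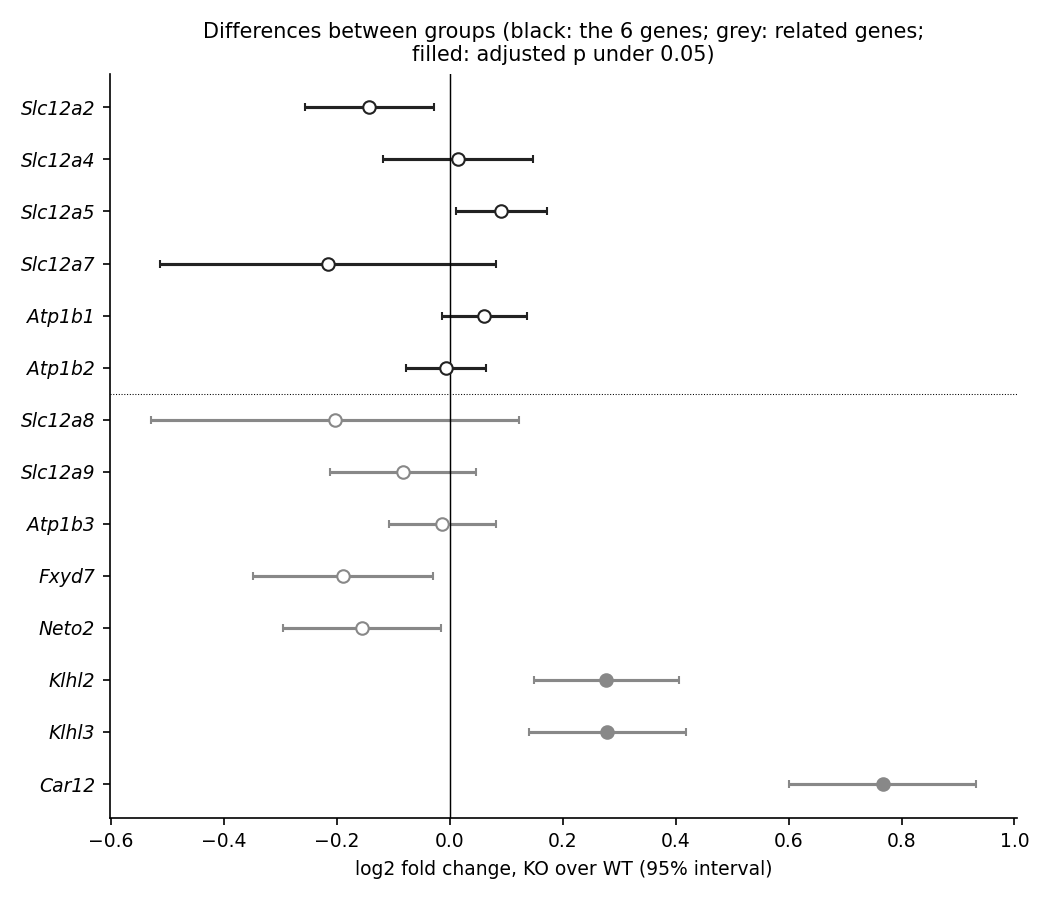
Log2 fold change of KO over WT (horizontal axis) with its 95% interval for the 6 genes in black and for related genes in grey. Open points did not pass an adjusted p of 0.05, and the filled points, Klhl2, Klhl3 and Car12, did. Of the 6 genes, Slc12a2 and Slc12a5 have intervals that leave out 0, on opposite sides, before adjustment.

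Levels can be set between genes once divided by transcript length, as CPM per kb of the longest protein-coding transcript. Atp1b1 led, at 655 ± 19.0 in WT (SD, n = 4), and Atp1b2 followed at 248 ± 5.30, with no overlap between their libraries. Slc12a5 came next at 115 ± 3.56, below every library of Atp1b2 and above every library of Atp1b3, a further beta subunit, at 62.0 ± 3.49. Slc12a2 at 22.7 ± 1.91 followed without overlap. Slc12a4 at 8.63 ± 0.68 overlapped with Slc12a9, a distant relative, at 10.8 ± 0.61. Slc12a7 at 1.33 ± 0.20 overlapped with Slc12a8 at 1.28 ± 0.29. KCC2 was thus the most abundant of the 6 cotransporters given here, in every library.

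**Figure D4:**
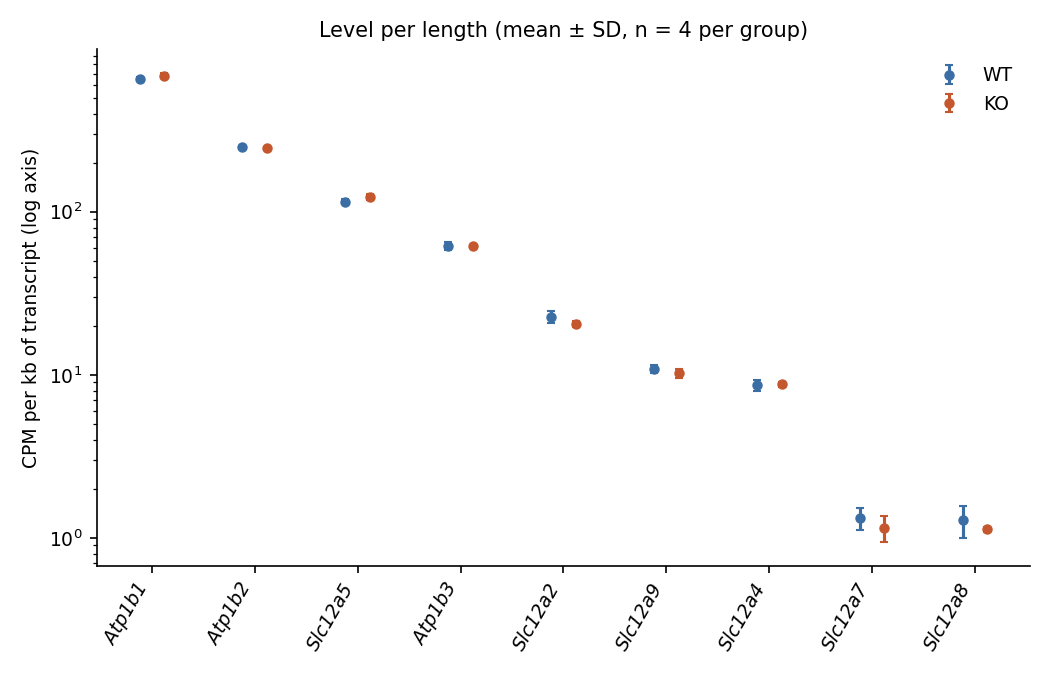
Level per length in CPM per kb of transcript (log axis) for the 6 genes and 3 relatives, as mean ± SD of 4 libraries per group, ordered by the WT mean. The order runs from Atp1b1 at 655 to Slc12a8 at 1.28 in WT libraries, and the 2 groups lie close together for every gene.

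Of the cotransporters outside the 6, 2 of 4 on the list were in the table and tested, and 0 passed the threshold in edgeR, with a median log2 difference of -0.14 and 0 at an unadjusted p under 0.05. On the log2 scale the difference was -0.20 (SE 0.16) for Slc12a8 and -0.08 (SE 0.06) for Slc12a9, with adjusted p of 0.643 and 0.630.

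Among other genes of the sodium pump, Atp1b3 and the small FXYD regulators, 7 of 10 were tested and 0 passed. An unadjusted p under 0.05 was found for 1, against 12.6% of all genes. On the log2 scale 1 was positive, against 48.0% of all genes, and the median was -0.084. Fxyd7, a brain regulator of the pump, had the lowest p. It stood at 35.7 ± 1.26 and 31.2 ± 3.95 CPM (SD, n = 4), with no overlap between the groups and an adjusted p of 0.291. Fxyd5 stood at 11.97 ± 0.53 and 10.8 ± 0.84 CPM (adjusted p = 0.468), also without overlap, and both were lower in KO. Of all tested genes, 3.40% were lower in KO without overlap. For Atp1b3 the log2 difference was -0.013 (SE 0.05).

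Known regulators and partners of the cotransporters held the first genes that changed. Their list was chosen with earlier results of these data known, so its shares are a description. Of 19 tested, 2 rose in KO, 0 fell and 17 did not pass, against 1.14% of all tested genes higher and 0.289% lower, and the list's median log2 difference was 0.0033. They were Klhl2 and Klhl3, related substrate adaptors of a ubiquitin ligase that marks WNK kinases, the activators of NKCC1 and inhibitors of KCC2, for degradation. Klhl2 was at 148, 128, 127 and 136 CPM in WT replicates 1 to 4 and at 177, 145, 168 and 163 CPM in KO replicates 1 to 4. Its log2 fold change was 0.28 (SE 0.06, adjusted p = 0.0296), although KO replicate 2 lay under WT replicate 1. Klhl3 rose without overlap, from 18.6 ± 1.03 to 22.4 ± 0.44 CPM (SD, n = 4), by 0.28 (SE 0.07, adjusted p = 0.0407).

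Both calls lay near the threshold. With 1 library fewer the log2 fold change stayed at 0.24 to 0.30 for Klhl3 and 0.24 to 0.33 for Klhl2. Klhl3 missed the threshold without each of the 8 libraries in turn, at an adjusted p from 0.0533 to 0.188, and Klhl2 in 6 of the 8 fits, at up to 0.116. The Klhl2 call was kept without WT replicate 1 (0.00882) and without KO replicate 2 (0.00227). The kinases themselves, named after their values were seen, did not pass. On the log2 scale Wnk1 differed by -0.08 (SE 0.04), Wnk2 by 0.04 (SE 0.05), Wnk3 by -0.02 (SE 0.08) and Wnk4 by -0.08 (SE 0.14). Stk39 and Oxsr1, the kinases that pass the WNK signal to the carriers, had 0.03 (SE 0.05) and -0.07 (SE 0.05). Usf1 and Usf2, whose recognition element appears in the sequences above, had -0.03 (SE 0.06) and -0.0049 (SE 0.04).

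Among chloride channels, bicarbonate carriers and carbonic anhydrases, 1 of 27 tested genes rose, 0 fell and 26 did not pass, and the list's median log2 difference was -0.012. The gene that rose was Car12, a carbonic anhydrase of the cell surface, which interconverts carbon dioxide and bicarbonate. It stood at 30.7, 24.0, 24.6 and 29.1 CPM in WT replicates 1 to 4. The KO values were 41.2, 47.5, 48.9 and 45.1 CPM, all above the WT range. The means of 27.1 ± 3.32 and 45.7 ± 3.39 CPM (SD, n = 4) differed 1.70-fold, with a log2 fold change of 0.77 (SE 0.08, adjusted p = 3.24e-05). It passed without any 1 library, at an adjusted p of at most 0.00042. Car12 was thus 1 of the 182 genes that rose, 1.14% of those tested.

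The genes whose levels followed each member most closely were sought over the 8 libraries among 10240 named genes above 10 CPM, as a description. For Slc12a2 the closest was Neto2, an auxiliary subunit of kainate receptors that also binds KCC2 (Pearson r = 0.98, Spearman rho = 0.95, n = 8). Like Slc12a2 it was highest in WT replicate 1, at 96.0 CPM against 73.8 to 82.2 CPM in the other WT libraries. Without the 2 libraries farthest from the Slc12a2 median, r was 0.92. Rp2h was next (r = 0.98, rho = 0.98). For Slc12a5 these were the chemokine gene Cx3cl1 (r = 0.96, rho = 0.88, and r = 0.90 without the 2 farthest libraries) and Git1, a scaffold of small GTPase signalling (r = 0.96, rho = 0.79, and r = 0.68 without them). For Atp1b1 these were Gnao1, a G protein subunit (r = 0.99, rho = 0.90), and Cadm1, an adhesion molecule (r = 0.98, rho = 0.98). Slc12a4 went with Cacna1g and Gga1 (r of 0.94 and 0.93), Slc12a7 with Rnf141 and Zkscan16 (0.97 and 0.95) and Atp1b2 with Ttll3 and Col18a1 (both 0.93). These values share libraries and depth, each is the highest of a search over all those genes with 8 points, and none was tested.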

How the data were processed

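Per the file headers, the authors deposited 1 table with expected counts, that is, estimated counts of reads per gene, with a column per library and no scaling between libraries, and 91.5% of those values were whole within 0.001. Per the labels' protocols, RNA was made into stranded mRNA libraries. TopHat2 2.0.9, edgeR and the build GRCm38 stand in the submitters' processing notes. How reads were counted, and whether by strand, is not given in the sources used here. Expected counts were rounded, filtered by filterByExpr (15902 genes) and scaled by TMM, and KO was compared with WT in edgeR 4.0.16 (R 4.3.3) by its robust quasi-likelihood test, with p-values adjusted over all those genes by Benjamini-Hochberg and a threshold of 0.05. CPM use TMM-scaled totals, and 3 counts correspond to 0.152 to 0.252 CPM. Ratios used the deposited counts and an exact two-sided permutation test. Positions and lengths are from GENCODE M21, upstream sequences from RefSeq.

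The members and gene lists were chosen with earlier results of these data known. The text names the 6 members, related genes past the threshold or the 2 of lowest p in each list, Atp1b3 whatever its p, and the 2 genes most correlated with each member; other names were chosen after values were seen. Some related genes are not reported here and were left out of the lists and of the search for correlated genes. In simulated KO against WT counts for 15902 genes, 36% of 50 genes changed 1.15-fold, 70% of 50 changed 1.25-fold and 100% of 50 changed 1.5-fold were recovered. Every simulated gene had the same coefficient of variation beyond counting noise, 5.38%, so these shares do not hold for genes that vary more. Alternatives were other scalings and filters, DESeq2 1.42.0, limma-voom 3.58.1, a replicate block, removal of GC content and length trends, and each library left out.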

Additional observations from a re-analysis of the deposited data

Results flagged for a closer look

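In the groups of 4, 34 sets of values (2 groups of 17 measures) were checked for a library far from its group by Dixon's criterion, which chance meets in about 1 of 20, and 2 met it. Uhrf2 was lowest in WT replicate 2, at 47.7 CPM against 57.2 to 58.9 CPM in the other WT libraries. The Atp1b1 to Atp1b2 ratio of counts was lowest in KO replicate 2, at 2.33 against 2.57 to 2.59 in the other KO libraries.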

How the results depend on the processing

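No member passed the threshold in any of 17 alternative fits, with adjusted p of at least 0.0574, that of Slc12a2 with the replicate number as a block. Slc12a2, Slc12a5, Slc12a7 and Atp1b1 kept their sign in all 17, as did Klhl2, Klhl3 and Car12. Slc12a4, at 0.014, turned to -0.0079 with GC content and length trends removed, -0.025 without WT replicate 4 and -0.0037 without KO replicate 4. Atp1b2, at -0.0066, turned to 0.0083 without WT replicate 3 and 0.0043 without KO replicate 3. The cause was not tested. Leaving out 1 library gave 110 to 324 changed genes, where all 8 gave 228, and log2 fold changes of -0.17 to -0.08 for Slc12a2, 0.06 to 0.11 for Slc12a5, -0.30 to -0.11 for Slc12a7, 0.04 to 0.09 for Atp1b1, -0.025 to 0.072 for Slc12a4 and -0.020 to 0.0083 for Atp1b2. The low end was without WT replicate 3 (110), KO replicate 3 (130) and KO replicate 4 (146), and DESeq2 gave 311. For the Slc12a5 to Slc12a2 ratio these fits gave differences of 0.16 to 0.28 with exact p from 0.0286 to 0.143. For Atp1b1 to Atp1b2 they gave 0.04 to 0.10 with exact p from 0.0571 to 0.400. Neither ratio passed after adjustment, which would have needed both ratios to reach the smallest exact p of 0.0286.

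The replicate numbers were checked for pairing: same-numbered libraries deviated together in 3 of 4 pairs (correlation over 0.1), but not in the third (-0.04), so the numbers were not taken to pair the libraries, and 5 of 8 libraries correlated best with their own number. As a block they gave 495 changed genes, among them 2 neuron markers higher, 3 astrocyte markers lower, 7 striatal markers higher, 1 microglia and 1 endothelial or mural marker lower, and 3 regulators of the cotransporters higher and 1 lower, and the paired sign-flip permutation gave exact p = 0.125, the smallest it can give, and 0.375 for the 2 ratios. Without both libraries numbered 1, an alternative chosen after seeing the data, 162 genes changed, 0 striatal markers among them, and the Slc12a5 to Slc12a2 difference was 0.20 (exact p = 0.1, the smallest that 3 against 3 libraries can give); Klhl3 missed the threshold there (adjusted p = 0.0749).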
